A study of Rattus norvegicus with 2 samples.

Results

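The miR-26 and miR-101 families were examined in the nucleus accumbens (NAc), a forebrain region of reward and motivation, of rats given alcohol or vehicle. Their 4 mature guide strands, rno-miR-26a, rno-miR-26b, rno-miR-101a and rno-miR-101b, were taken by probe name from the 349 rat miRNA probes on the array, and passenger strands (names ending in an asterisk) were left out. The study divided 18 male Sprague-Dawley rats weighing 150 to 180 g into a vehicle group and an alcohol group. The vehicle group was injected i.p. with 500 µl saline and the alcohol group i.p. with 1 g/kg alcohol. Both were injected 2 times daily for 7 days. The dissected tissue held the core and the shell of the NAc. Each group is represented by 1 array of 1 colour (Cy3), and how RNA of several rats was combined for an array is not stated in the sources used here. Each probe had 9 repeat spots, so an SD over spots measures error within an array. Differences between the groups given here have no replicate arrays behind them, and no test was made of them.

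A miRNA guides the silencing machinery to mRNAs that pair with its seed, bases 2 to 8 from the 5′ end, and lowers their translation or stability. Both families are known to repress EZH2, the methyltransferase of Polycomb repressive complex 2, which places the silencing mark H3K27me3 on chromatin. In developing neurons miR-26 is also known to take part in differentiation, and its genes lie in introns of the CTDSP phosphatase genes. miR-101 is known as a tumour suppressor that is lost in several cancers, and in brain it has been linked to the excitability of developing networks. EZH2 itself was not measured here.

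The mature sequences listed for the 4 probes are shown because the members of each family differ outside the seed only, so that paralogues share predicted targets while their probes differ by 1 or 2 bases. Capitals mark the seed.
rno-miR-26a: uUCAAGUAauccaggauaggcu
rno-miR-26b: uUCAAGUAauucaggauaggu
rno-miR-101a: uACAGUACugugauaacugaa
rno-miR-101b: uACAGUACugugauagcugaa
Counted from 1 at the 5′ end, miR-26a and miR-26b differed by C11U and C21U (base in miR-26a first), and miR-26a was 1 base longer, with 22 nucleotides against 21. miR-101a and miR-101b had 21 nucleotides each and differed by A16G (base in miR-101a first). All 4 sequences matched a RefSeq mature miRNA of the rat assembly GRCr8 exactly, with 1 gene each. On that assembly miR-26a lay at chr8:127633063-127633084 (plus strand) inside the span of Ctdspl, and miR-26b at chr9:83425723-83425743 (plus strand) inside Ctdsp1. miR-101a lay at chr5:121081691-121081711 (minus strand) inside the non-coding gene LOC120102934, and miR-101b at chr1:236273982-236274002 (plus strand) inside Rcl1, a gene for a ribosomal RNA processing factor. No other probe on the array carried either seed. miR-144, a miRNA of red blood cells, shared bases 2 to 7 with miR-101 and passed the detection limit on 0 of 9 spots of either array.

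The detection limit was 278 density units for vehicle and 179 for alcohol, that is, 3 median absolute deviations above the median of 88 mismatched control spots, and a probe counted as detected with at least 5 of 9 spots above it. By this rule 150 of 349 miRNAs were detected on both arrays, all 4 members among them. Of the marker miRNAs, the neuronal miR-124, miR-9 and miR-128 were detected on both arrays, and the blood markers miR-451 and miR-144 on neither. The normalized log2 ratio was 0.03 for miR-124, 0.02 for miR-128 and 0.72 ± 2.57 (SD over 9 spots) for miR-9. The lowest vehicle spot of miR-9 had a density of 290 against a median of 37278. With the median over spots its log2 ratio was 0.03. The muscle markers miR-1 and miR-206 were detected on neither array, whereas miR-133a passed on 5 of 9 spots of the vehicle array and on 0 of the alcohol array. The liver marker miR-122 was detected on both, with raw densities of 611 (vehicle) and 286 (alcohol) and a normalized log2 ratio of -2.16. The oligodendrocyte markers did not move alike. The raw density of miR-338 was 252 on the vehicle array, with 0 of 9 spots above the limit, and 847 on the alcohol array, with 9 of 9, and its normalized log2 ratio was 1.63. miR-219-5p had densities of 262 and 222, with 1 and 9 spots above the limit, but a normalized log2 ratio of 0.0040. Other strands of these miRNAs, looked up after values had been seen, were detected on both arrays with log2 ratios of -0.25 for miR-219-2-3p and -0.72 for miR-338* after cyclic loess, and of 0.43 and 0.44 without normalization. Their part in the results below was not tested, and in dissected tissue a larger share of a cell type and more RNA per cell cannot be told apart.

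The probe of miR-26a was bright on both arrays, and its ratio depended on how the arrays were scaled. On the vehicle array its 9 raw spot densities had a lowest value of 31464, a median of 33915 and a highest value of 35626. On the alcohol array they had a lowest value of 21493, a median of 23531 and a highest value of 24400. All alcohol spots were below all vehicle spots before normalization. After background correction and cyclic loess normalization, which removes differences between arrays that depend on brightness, the signals of vehicle and alcohol were 28988 and 26879. The log2 ratio of alcohol over vehicle was -0.11 ± 0.03 (SD over 9 spots), or 92.7% of vehicle. All 9 spots were lower on the alcohol array, by less than the 1.3-fold change used as the threshold, and the normalized spots overlapped. In the upper, middle and lower block of rows the log2 ratio was -0.12, -0.11 and -0.10. The sign was not kept in the authors' processed values, which were 25075 for vehicle and 25655 for alcohol, a log2 ratio of 0.03. Scaled by 1 constant per array the log2 ratio was lower, at -1.75 with the median of the detected miRNAs and -1.50 with the 75th percentile. It was -0.75 with the calibration spikes and -0.23, short of 1.3-fold, with the 5S rRNA probes. miR-26a was past 1.3-fold lower in 4 of the 16 ways of processing tried.

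miR-26b, its paralogue, went the other way before normalization. Its raw spot densities ran from 974 to 1422 with a median of 1296 (vehicle), and from 1819 to 2620 with a median of 2063 (alcohol), without overlap. Normalization took this difference away. The normalized signals of vehicle and alcohol were 1502 and 1541, which is a log2 ratio of 0.04 ± 0.16 (SD over 9 spots), with 6 of 9 spots higher on the alcohol array. The normalization had moved the log2 ratio of miR-26b by -0.85 and that of miR-26a by 0.42. By row block the log2 ratio of miR-26b was -0.16, 0.13 and 0.15, and the authors' processed values were 1415 and 1394, a log2 ratio of -0.02. Neither miR-26 member therefore differed by 1.3-fold after cyclic loess, although miR-26b was past it upward in 3 and downward in 1 of the 16 ways.

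After cyclic loess miR-101a was the one member past 1.3-fold, and it was past it in each of the 16 ways of processing. On the vehicle array its raw spot densities ran from 286 to 359 with a median of 314, so that every spot lay above the limit but near it. On the alcohol array they ran from 876 to 1047 with a median of 955. Against the median of the mismatched controls the mean density was 1.32 times as high for vehicle and 6.62 times for alcohol. The normalized signal of miR-101a rose from 279 to 609, by a log2 ratio of 1.12 ± 0.21 (SD over 9 spots) or 2.18-fold. It was higher on 9 of 9 spots, with log2 ratios of single spots between 0.78 and 1.37. The spots of the arrays did not overlap. The authors' processed values were 174 and 467, or 2.68-fold. Over the 16 ways the fold ran from 1.80 to 5.73. The study also lists miR-101a as increased from these same arrays, so this is not independent evidence of its direction. It reports a Student's t-test with 9 rats stated per group, which cannot be repeated from 1 array per group.

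miR-101b differed from it. Its raw spot densities ran from 333 to 410 with a median of 348 (vehicle), and from 542 to 644 with a median of 578 (alcohol). These did not overlap either. After normalization the signals of vehicle and alcohol were 335 and 363, which is a log2 ratio of 0.11 ± 0.21 (SD over 9 spots), with 6 of 9 spots higher on the alcohol array and overlapping spots. The authors' processed values were 253 and 254. miR-101b was past 1.3-fold higher in 3 of the 16 ways, at 1.45 when scaled to the 5S rRNA probes. Cyclic loess had lowered the log2 ratios of the miR-101 probes by similar amounts, with shifts of -1.09 for miR-101a and -1.03 for miR-101b.

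**Figure D1:**
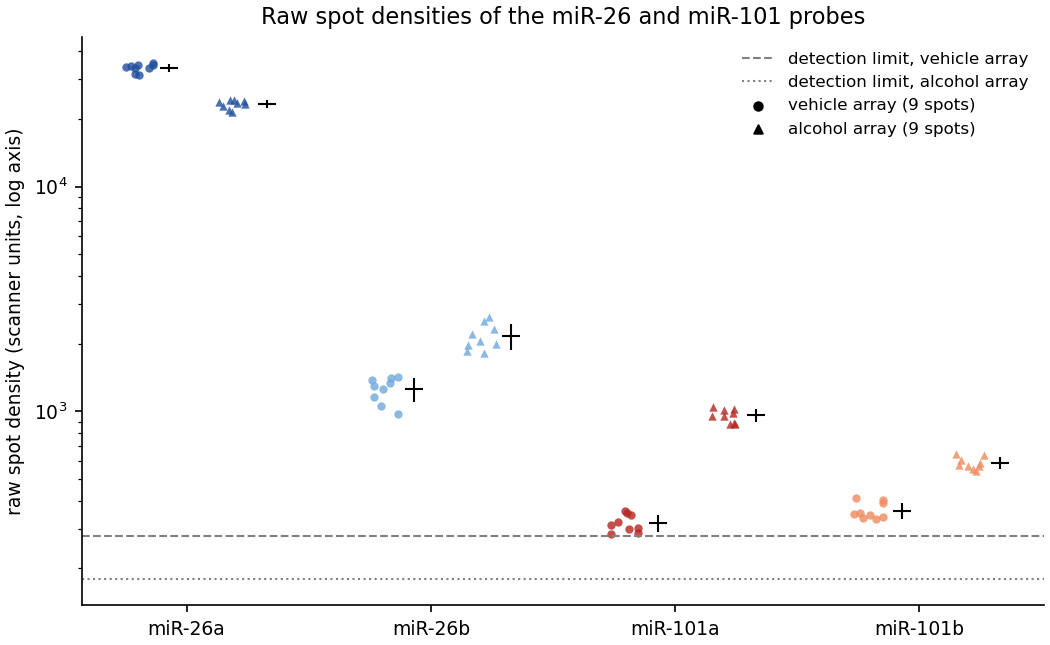
Raw spot densities (log axis, scanner units) of the 4 probes, with 9 spots per probe on the vehicle array (circles) and on the alcohol array (triangles); black bars show mean ± SD over spots, and the grey lines show the detection limits of 278 (vehicle) and 179 (alcohol). Vehicle spots of miR-101a lie just above the limit, between 286 and 359, and its alcohol spots lie between 876 and 1047.

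The raw spots did not overlap between the arrays for any of the 4 members, and the same held for 66% of the 150 miRNAs detected on both arrays, so that this separation says little of the members. After normalization the spots were separate for miR-101a only, against 34.7% of the 150. A change was called at 1.3-fold among miRNAs that passed detection on either array and whose brighter array reached a normalized signal of 400. In all, 125 miRNAs met both conditions, of which 26.4% were called higher, 20.8% lower and 47.2% in either direction. Of the members, 3 met them and 1, miR-101a, was called higher. miR-101a met the signal condition through the alcohol array alone, and miR-101b, at 363, did not meet it. A share of 1 in 3 is near the background, and nothing particular to the families is read from it. Among the 150 miRNAs detected on both arrays, 7 had a higher log2 ratio than miR-101a, 53 a higher one than miR-101b, 68 than miR-26b and 83 than miR-26a. The median log2 ratio of these 150 was -0.07 after cyclic loess and 0.57 without normalization, so each member was also placed against it. Relative to that median, miR-101a stood at 1.19 after cyclic loess and 1.65 without normalization, and miR-101b at 0.18 and 0.58. miR-26b stood at 0.11 and 0.32, and miR-26a at -0.04 and -1.10.

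**Figure D2:**
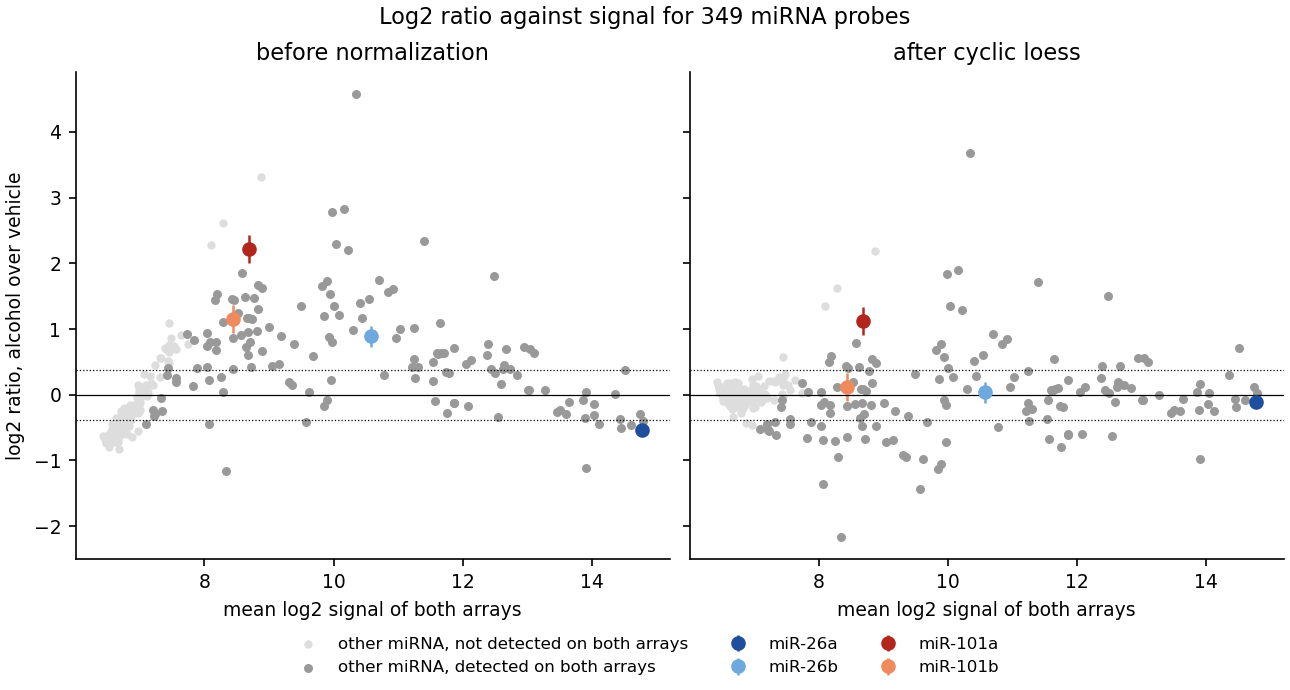
Log2 ratio of alcohol over vehicle against the mean log2 signal of both arrays for 349 miRNA probes, before normalization (left) and after cyclic loess (right); bars on the 4 coloured members are 1 SD over 9 spots, and dotted lines mark 1.3-fold. Before normalization most detected probes of low and middle signal lie above 0 and most of the brightest below it, and after it miR-101a alone of the members lies outside the dotted lines, at 1.12.

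The balance between paralogues was compared as the difference of their log2 ratios, since the densities of different probes do not rank amounts of RNA. A constant factor of each probe cancels in it, but a difference between the arrays that depends on brightness does not. In the miR-101 family, miR-101a rose over miR-101b by 1.01 ± 0.10 on the log2 scale (SD over 9 spots), which is 2.01-fold. Single spots gave between 0.89 and 1.16. The spread of this difference was smaller than that of either ratio alone, and both ratios varied alike over the array surface. In the upper, middle and lower block of rows, the log2 ratio was 1.00, 1.09 and 1.29 for miR-101a and -0.07, 0.08 and 0.33 for miR-101b. In the miR-26 family, the log2 ratio of miR-26a minus that of miR-26b was -0.15 ± 0.16 (SD over 9 spots), with single spots between -0.30 and 0.17, so no shift in balance exceeded the spread over spots.

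The pairs differed in how far the balance depended on the normalization. The miR-101 probes were close in mean log2 signal, 0.24 apart, and the difference of their ratios was 1.07 without normalization, 1.41 in the authors' processed values and between 0.77 and 1.58 over the 16 ways of processing. The miR-26 probes were 4.20 apart in mean log2 signal. The difference of their ratios was -1.42 without normalization, and also under every scaling by 1 constant per array, but 0.05 in the authors' processed values. Over the 16 ways of processing it ran from -1.42 to 0.22, above 0 in 3, so the direction of the miR-26 balance was not settled.

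**Figure D3:**
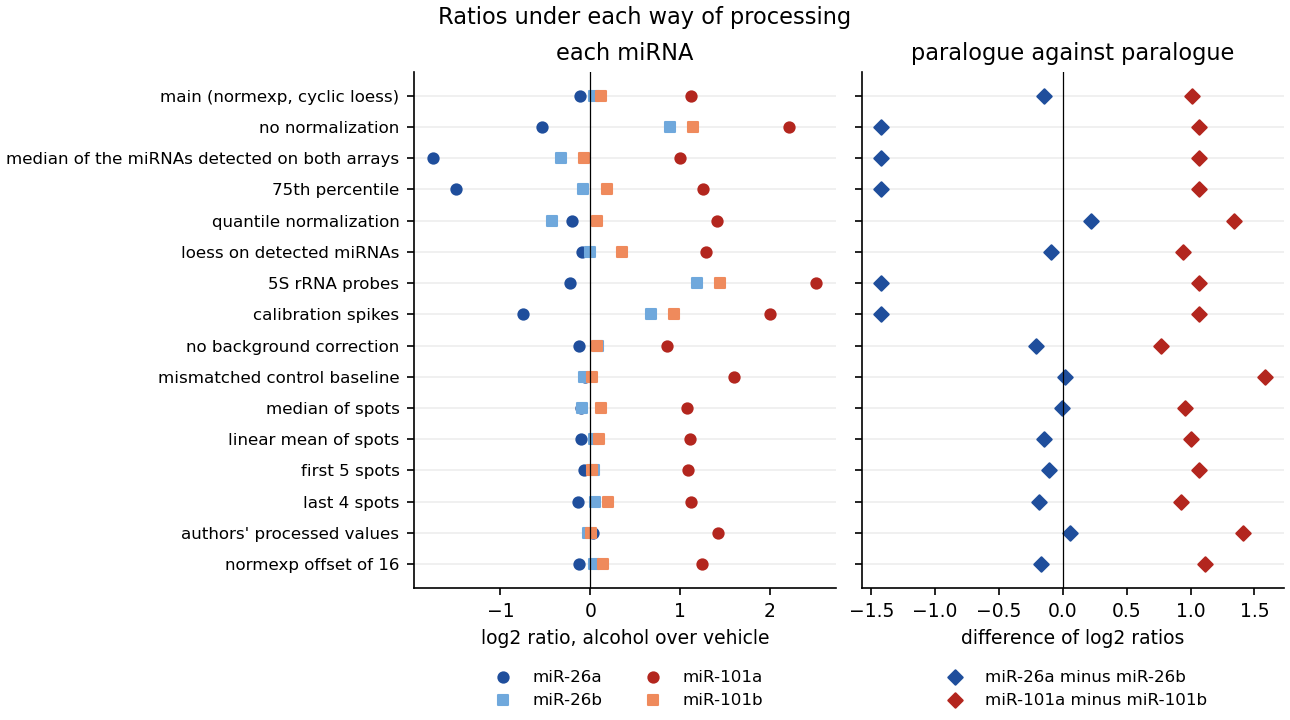
Log2 ratios of alcohol over vehicle for the 4 members (left) and differences of log2 ratios between paralogues (right) under 16 ways of processing. miR-101a lies above 0 throughout, from 0.85 to 2.52, and the miR-101 difference from 0.77 to 1.58, whereas the miR-26 difference is -1.42 with no normalization or a constant scaling and between -0.21 and 0.22 otherwise.

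A probe could also bind the paralogue, because the miR-101 targets differ by 1 base. How far it did was not tested. Of the 22 mismatched control probes, 1 passed the detection limit in at least 3 of 4 spots on the vehicle array and 2 did on the alcohol array. The limit was set from these same control spots, so these counts do not show how far a miR-101 probe binds the paralogue. To set the miR-101 difference beside others, all probe pairs with at most 2 substitutions and lengths within 1 base were taken, a comparison chosen after values had been seen. In 25 such pairs both probes were detected on both arrays, and in 40% of them the ratios were at least 1.3-fold apart. The median size of the difference was 0.19 on the log2 scale after cyclic loess and 0.62 without normalization, and after cyclic loess it was 0.43 over the 13 pairs that, like miR-101, differ by 1 substitution. The miR-101 pair had the size of rank 7 and the miR-26 pair that of rank 19 after cyclic loess, whereas without normalization the miR-26 difference, at 1.42, was larger than the miR-101 difference, at 1.07. The largest after cyclic loess was 1.74, between miR-27a and miR-27b. In 9 pairs the probes lay within 0.5 of each other in mean log2 signal, and among these the miR-101 pair had the largest difference, followed by miR-103 and miR-107 at 0.25. The pairs share probes, 5 of the 9 are pairs of let-7 members, and no test was made of this order. Besides the miR-101 pair, only miR-17 and miR-20a were of similarly low signal, with a difference of 0.18, and the other pairs were brighter. The gap was taken from the signals of both arrays, which also give the ratios. A limit of 0.5 on it was therefore not independent of the differences ranked. All pairs with a larger difference than miR-101 after cyclic loess had gaps between 0.98 and 2.67 and fell outside this limit.

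**Figure D4:**
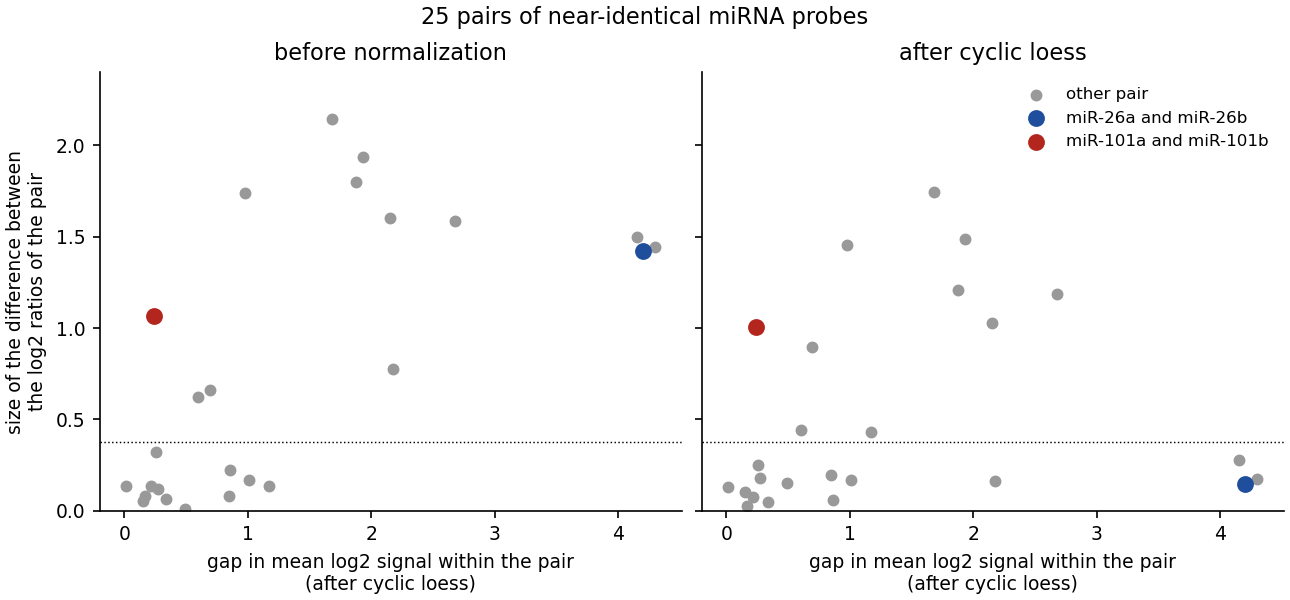
Size of the difference between the log2 ratios of 25 pairs of near-identical miRNA probes against the gap in mean log2 signal (after cyclic loess) within each pair, before normalization (left) and after cyclic loess (right); the dotted line marks 1.3-fold. The miR-101 pair stays near 1 in both panels (1.07 and 1.01) at a small gap of 0.24, and the miR-26 pair falls from 1.42 to 0.15 at a gap of 4.20.

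All 4 targets were poorer in G and C than the median miRNA. The GC content was 33.3% in miR-101a and in miR-26b, 38.1% in miR-101b and 40.9% in miR-26a, against a median of 47.8% over the 150 miRNAs detected on both arrays. miR-101a and miR-26b thus had the same GC content and log2 ratios of 1.12 and 0.04. Among the 6 miRNAs detected on both arrays with a GC content no higher than theirs, these included, 2 exceeded the 1.3-fold threshold upward, miR-101a among them. Under the other filter, detection on either array and the signal condition, 26.4% of 125 miRNAs were called higher. The part of base composition in the ratio of miR-101a was not tested.

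The passenger strands on the array were not detected. miR-101a* passed the limit on 0 of 9 spots of each array, with mean densities of 245 and 148, and miR-26b* likewise, with 241 and 144. A rise of the passenger strand beside that of miR-101a could therefore not be measured at this signal.

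Other miRNAs known to repress EZH2 were taken as a list of 13, namely let-7a to let-7f and let-7i, miR-98, which shares the let-7 seed, the neuronal miR-124, miR-137 and miR-138, and miR-214 and miR-217. Of these, 12 were detected on both arrays and 11 also met the signal condition. Among the 11, 1 was called higher and 1 lower, against the 47.2% called in either direction over all miRNAs. The median log2 ratio of the 12 detected was -0.19, beside -0.07 for all 150 miRNAs detected on both arrays. miR-137, a regulator of neuronal maturation, was higher by 0.55 ± 0.16 (SD over 9 spots), although it was at -0.52 when the arrays were scaled to the median of the detected miRNAs. let-7d was called lower at -0.98 ± 2.50 through 1 alcohol spot at a density of 176, and with the median over spots its log2 ratio was -0.04. miR-124 was at 0.03 ± 0.06 and miR-138 at -0.18 ± 0.10. miR-214, detected on 5 of 9 spots of each array, and miR-217, detected on 0, did not meet the signal condition. No EZH2-repressing miRNA of this list had a log2 ratio as high as that of miR-101a after cyclic loess.

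**Figure D5:**
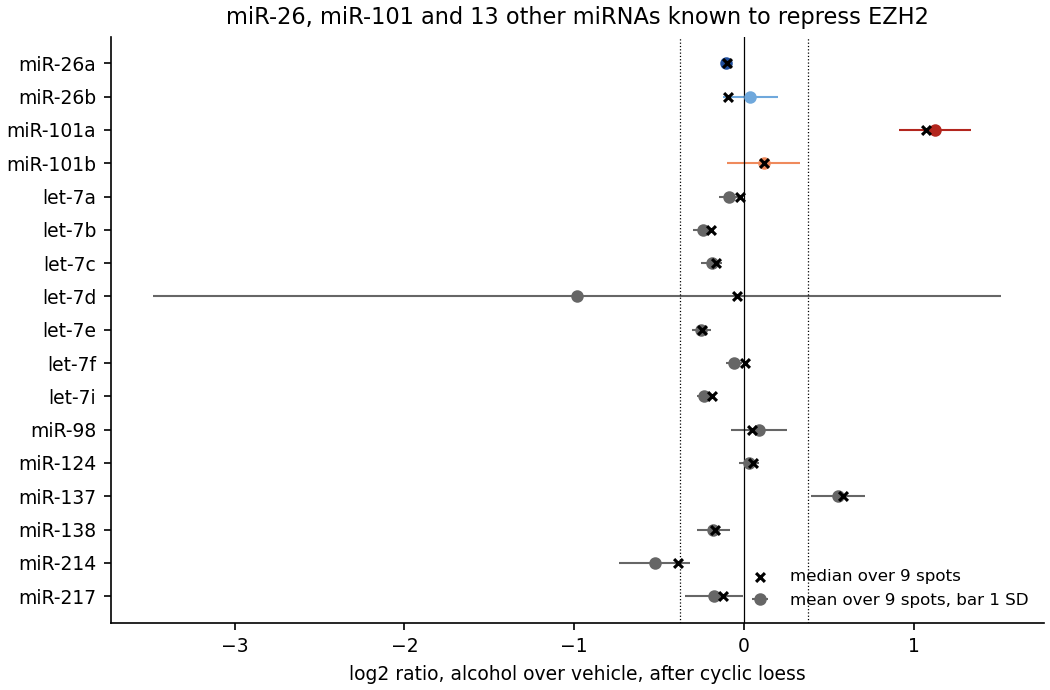
Log2 ratio of alcohol over vehicle after cyclic loess for the 4 members and 13 other miRNAs known to repress EZH2; points are means over 9 spots with bars of 1 SD, crosses are medians over spots, and dotted lines mark 1.3-fold. miR-101a (1.12) and miR-137 (0.55) lie above the upper line, and the wide bar of let-7d (SD 2.50) comes from 1 spot.

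By their normalized log2 signals on the 2 arrays, which is a likeness over 2 points only, the miRNAs nearest to miR-26a were miR-128 at a distance of 0.10 and miR-125b-5p at 0.17. Nearest to miR-26b were miR-195 at 0.25 and miR-98 at 0.38, and to miR-101b miR-369-5p at 0.12 and miR-708 at 0.20. miR-101a had miR-181d at 0.28 and miR-664 at 0.45, whose log2 ratios were 0.79 ± 0.14 and 0.54 ± 0.59 (SD over 9 spots each). A ratio is the difference of the same 2 signals, so similar ratios among neighbours follow from how they were chosen.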

How the data were processed

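Small RNA from the NAc was tailed, tagged and stained with Cy3 by a service provider. The authors deposited the intensity of each spot as its mean pixel density, without background subtraction, and 1 processed intensity per probe, for which they subtracted background and normalized with a cyclic method whose settings are not given in the sources used here.

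From the spot intensities, background was corrected with normexp (offset 50, fitted on all 3968 spots of an array) in limma 3.58.1 under R 4.3.3, and log2 values were averaged over the 9 spots of each of 349 probes. Cyclic loess (span 0.7, 3 iterations) then put both arrays on 1 scale. Spots of both arrays were matched by position for SDs of ratios. With 1 array per group no test was made, and precision is limited by there being 2 arrays. Background correction, averaging over spots and cyclic loess were checked together with simulated data of known ratios. Only probes with a vehicle density more than 400 above the mismatched controls were changed in it. The simulated arrays also differed less with brightness than the real ones. In the real arrays cyclic loess moved the log2 ratios of the members by between -1.09 and 0.42. The check therefore did not cover a dependence on brightness as strong as this. Nor did it cover changed probes as dim as those of miR-101, or the other ways of processing. Its outcome is not given here. Mature sequences were matched to RefSeq's miRNA table (GRCr8), and genes spanning them were taken from its gene table.

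The named miRNAs were the 4 members, a list of 13 others known to repress EZH2, markers of cell types, and the 2 miRNAs nearest to each member in signal. Others were named after their values were seen. Members and lists were chosen with earlier results of these data known. In all, 15 other ways of processing were tried on the ratios.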

Additional observations from a re-analysis of the deposited data

How the results depend on the processing

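No paired analysis was possible because there is a single array of vehicle and a single one of alcohol, and for the same reason no replicate could be left out. Over the 15 other ways of processing, miR-101a was higher by at least 1.3-fold in each, as was its difference from miR-101b. These ways are not separate evidence, since all use the same 2 arrays. The miR-101 difference is also 1.07 by construction both without normalization and under every scaling by 1 constant per array. The log2 ratio of miR-26b was above 0 in 9 of the 16 ways in all, that of miR-101b in 15 and that of miR-26a in 1. Values that moved by more than the SD over spots follow as log2 ratios, and the cause was not tested. Without normalization, miR-26a was at -0.53, miR-26b at 0.89, miR-101a at 2.22 and miR-101b at 1.15. Scaling to the 5S rRNA probes gave -0.23, 1.19, 2.52 and 1.45 in the same order, and scaling to the matched calibration spikes gave -0.75, 0.67, 2.0 and 0.93. With each of these, and with scaling to the 75th percentile or to the median of the detected miRNAs, the miR-26 difference was -1.42, because a constant cancels in the difference. Median scaling put miR-26a at -1.75 and miR-26b at -0.33, and the 75th percentile put miR-26a at -1.50. Quantile normalization gave -0.20 for miR-26a, -0.42 for miR-26b and 1.41 for miR-101a, with differences of 0.22 for miR-26 and 1.34 for miR-101. In the authors' processed values miR-26a was at 0.033 and miR-101a at 1.42, with differences of 0.0544 and 1.41. Subtracting the mismatched control baseline gave -0.0546 for miR-26a and 1.60 for miR-101a, with differences of 0.0195 and 1.58. Without background correction miR-101a was at 0.85 and its difference from miR-101b at 0.77, and with a normexp offset of 16 that difference was 1.11. Loess on detected miRNAs put miR-101b at 0.35. miR-26a was at -0.0737 in the first 5 spots and at -0.14 in the last 4. Measured from the median ratio of all detected miRNAs, miR-101a lay between 0.89 and 1.66 over all ways. Of all miRNAs, 33 were called higher and 26 lower. These counts became 85 and 8 when no normalization was made, 17 and 79 under median scaling, 28 and 60 under the 75th percentile, 100 and 2 with 5S rRNA, 70 and 19 with spikes, 25 and 33 in the authors' values, and 11 and 5 at 2-fold. The low vehicle signal of both miR-101 probes limits the precision of their ratios.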
